A study of Mus musculus with 12 samples.

Results

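The small heat shock proteins and their partner chaperones were followed after *Kdm6a* knockdown in mouse ES cells. The group was a list of 10 genes, taken by gene symbol from the platform annotation: the small heat shock protein genes *Hspb1*, *Hspb2*, *Hspb6*, *Hspb8* and *Cryab*, the cochaperone *Bag3*, the HSP70 *Hspa8*, the HSP110 *Hsph1*, the J-domain protein *Dnajb1* and the heat shock factor *Hsf1*. Of these, 9 had a probe set with 1 gene symbol, out of 19938 genes so measured, and all 9 lay above the minimum level (a mean of at least 0.1 of the array mean) that 15309 genes passed. *Hsf1* is unnamed here and has no value. The list was chosen on the arrays themselves, since *Hspb8* was among the largest falls in PGK12.1, and the other genes were added to it as relatives and partners. Values of these genes in PGK12.1, and in PGK12.1 against WD44, are therefore a description without a test.

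*Kdm6a* RNAi cells received a pool of siRNAs against *Kdm6a*, and control cells received Stealth siRNAs without a target. PGK12.1 is a female line from blastocysts of a 129 female and a (129 X PGK)F1 male, and WD44 is a male line of BL6 background, so sex and strain cannot be told apart, and each sex is represented by 1 line. All cells were undifferentiated, were kept with LIF on MEF feeders and were depleted of feeders on gelatin before RNAi. Double RNAi (PGK12.1 experiments 1 and 2) meant 100 pmol for 48 h followed by 400 pmol for 24 h, so that cells were collected at 72 h. Single RNAi (PGK12.1 experiments 3 and 4, and both experiments in WD44) meant 100 pmol and collection at 48 h. Each experiment gave 1 *Kdm6a* RNAi array and 1 control array, 12 arrays in all. The change of a gene is the log2 value of the *Kdm6a* RNAi array less the value of the control array from the same experiment.

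Small heat shock proteins are ATP-independent holdases: they bind unfolding proteins through a conserved α-crystallin domain and keep them from aggregating until HSP70 can refold them. HSPB8 works as a partner of BAG3, a scaffold that also binds HSP70 (HSC70, encoded by *Hspa8*) and steers clients to autophagy, a route best known from muscle. J-domain proteins such as DNAJB1 bring clients to HSP70 and stimulate its ATPase, and HSP110 proteins such as HSPH1 exchange its nucleotide. Under heat or proteotoxic stress, HSF1 binds heat shock elements and raises many of these genes together. KDM6A removes methyl groups from H3K27.

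Experiments differed in scale. Median log2 values ran between 6.15 and 6.21 for double RNAi in PGK12.1, were 6.47 and 6.48 for PGK12.1 experiment 3 and 8.2 and 8.21 for PGK12.1 experiment 4, and ran between 8.03 and 8.08 for WD44. Each *Kdm6a* RNAi array shared the scale of its control, and log2 levels were compared only within an experiment. Sums of markers are given relative to the mean of their own array. *Kdm6a* checked the labels: its log2 changes were -1.27, -1.50, -1.42 and -0.96 in PGK12.1 experiments 1 to 4 and -0.94 and -0.92 in WD44. Of the ES cell markers, *Pou5f1* lay at or above the percentile of 98.6 of all genes on all arrays. The lowest were *Zfp42*, down to the percentile of 65.0, and *Klf4*, down to 77.7. The sum over the 8 ES cell markers was 59.7 to 87.5 times the array mean after *Kdm6a* RNAi and 59.2 to 88.1 in controls in PGK12.1. In WD44 it was 45.3 to 47.4 and 45.4 to 47.5.

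*Hspb8* (probe set 10533050, chromosome 5), the small heat shock protein that binds BAG3, was below its paired control after *Kdm6a* RNAi in every PGK12.1 experiment. With double RNAi its log2 value was 7.21 against 7.92 in the control of experiment 1, and 7.28 against 7.79 in experiment 2. With single RNAi it was 8.37 against 8.83 in experiment 3, and 10.25 against 11.25 in experiment 4. In WD44 it was 10.25 against 10.11 in experiment 1 and 9.95 against 10.14 in experiment 2. The pairs of PGK12.1 thus all ran one way and the pairs of WD44 ran opposite ways. Values pooled over both WD44 experiments overlapped between conditions. Log2 values of PGK12.1 were not pooled, since array scales differed between its experiments. In PGK12.1 the percentiles of *Hspb8* among all genes overlapped too, at 60.5 to 74.7 after *Kdm6a* RNAi and 69.5 to 87.3 in controls.

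**Figure D1:**
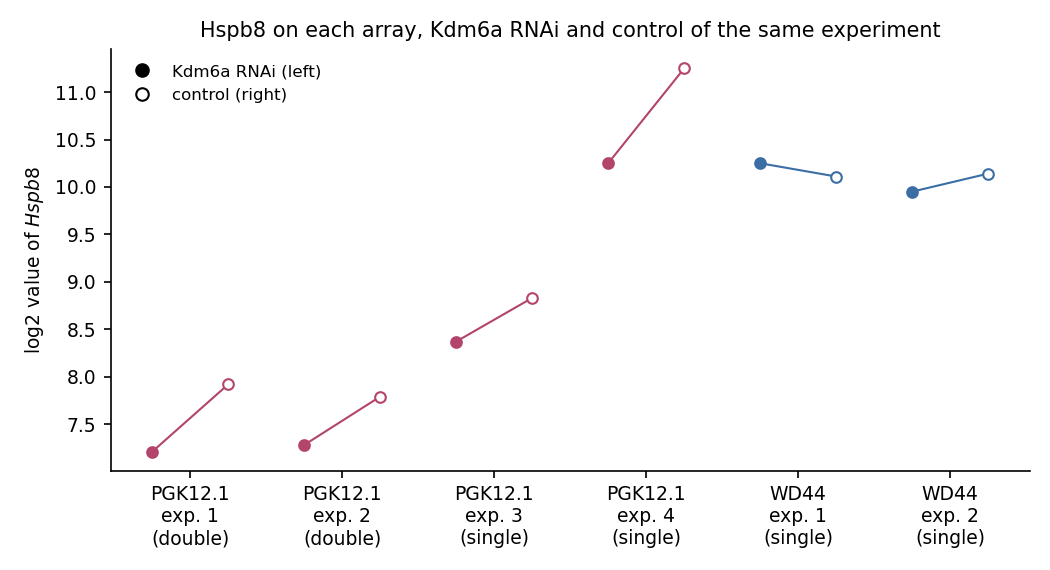
*Hspb8* on each of the 12 arrays. The y axis is the log2 value, and a line joins the *Kdm6a* RNAi array (filled, left) and the control array (open, right) of an experiment. The *Kdm6a* RNAi array lies lower in the 4 PGK12.1 experiments, by 0.46 to 1.0, and in 1 of the 2 WD44 experiments.

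The log2 changes of *Hspb8* in PGK12.1 were -0.71 and -0.51 in the double and -0.46 and -1.0 in the single RNAi experiments. The mean of -0.67 ± 0.245 (SD, n = 4 experiments) is a level 37.1% ± 10.3 below the control, or 1.59-fold lower. It was the fifth lowest change of the tested genes. The lowest value came from experiment 4, and without that experiment the mean was -0.56. A bound of -0.46 was set at the change of *Hspb8* nearest to 0, so *Hspb8* met it by construction. Changes at or under that bound in all 4 experiments were found for 14 genes, 0.0914% of those tested. *Hspb8* was the only one of the 9 measured members. These are the values the list was chosen on.

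In WD44 the log2 changes of *Hspb8* were 0.14 and -0.19, with a mean of -0.03 (standard error 0.123) and a 95% confidence interval of -0.30 to 0.25. The change was not past the threshold of the test across genes (adjusted p = 0.948 from limma). The sign of so small a mean depends on the experiment and on the scaling: it was -0.19 without experiment 1, 0.14 without experiment 2, and 0.02 after quantile normalization. All 4 PGK12.1 changes lay below both WD44 changes, which held for 1 of 9 members and for 13.8% of tested genes. The number of RNAi rounds did not order the changes of *Hspb8*. The mean was -0.61 with double RNAi and -0.73 with single RNAi, a difference of 0.12 (standard error 0.179, 95% confidence interval -0.29 to 0.53) that did not pass the test (adjusted p = 0.888 from limma). It was -0.15 without experiment 4.

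Promoters of 4 members are shown because heat shock factors bind heat shock elements, which are inverted repeats of GAA. Such elements usually hold a run of units, of which the motif searched is a single pair. RefSeq sequences of GRCm38.p6, 250 bases before to 50 after a start site, were held for 6 members (9 promoters). They are printed 5′ to 3′ on the gene's strand, with each GAANNTTC or TTCNNGAA, a pair of such units, in capitals. Each of these motifs reads the same on both strands, and neighbouring matches may overlap.
Hspb8 (chr5:116422815-116423114, minus strand): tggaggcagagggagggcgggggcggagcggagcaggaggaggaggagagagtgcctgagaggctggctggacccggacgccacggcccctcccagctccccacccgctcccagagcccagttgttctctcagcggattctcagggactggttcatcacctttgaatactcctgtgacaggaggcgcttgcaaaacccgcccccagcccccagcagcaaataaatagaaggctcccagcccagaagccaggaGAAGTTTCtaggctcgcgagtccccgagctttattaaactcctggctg
Hspb1 (chr5:135887669-135887968, plus strand): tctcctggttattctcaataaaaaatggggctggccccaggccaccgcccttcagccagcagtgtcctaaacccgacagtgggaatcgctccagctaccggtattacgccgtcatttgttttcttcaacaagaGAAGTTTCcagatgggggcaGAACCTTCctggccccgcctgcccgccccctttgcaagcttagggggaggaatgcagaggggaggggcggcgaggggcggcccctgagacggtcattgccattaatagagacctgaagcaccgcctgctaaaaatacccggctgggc
Bag3 (chr7:128523333-128523632, plus strand): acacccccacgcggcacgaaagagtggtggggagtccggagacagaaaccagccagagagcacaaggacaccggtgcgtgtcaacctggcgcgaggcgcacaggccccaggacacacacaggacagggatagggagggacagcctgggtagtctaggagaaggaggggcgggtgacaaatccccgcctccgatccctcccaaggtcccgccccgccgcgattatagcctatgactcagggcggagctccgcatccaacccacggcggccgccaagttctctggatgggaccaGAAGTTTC
Hsph1 (chr5:149636287-149636586, minus strand): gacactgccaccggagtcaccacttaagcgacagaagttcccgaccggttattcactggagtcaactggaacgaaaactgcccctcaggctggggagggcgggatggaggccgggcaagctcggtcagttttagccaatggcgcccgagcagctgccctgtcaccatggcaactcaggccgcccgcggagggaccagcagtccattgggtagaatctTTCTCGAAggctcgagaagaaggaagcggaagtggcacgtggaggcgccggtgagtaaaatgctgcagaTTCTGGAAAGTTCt

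The promoter of *Hspb8* held 1 match, GAAGTTTC, beginning 2 bases past the start site. The same 8 letters stood in *Bag3*, 42 bases past the start, and in *Hspb1*, at -117, where GAACCTTC followed at -97 (bases from the start, negative before it). *Hsph1* held 3 matches, 1 of them at -33 and an overlapping pair from 36 bases past the start. A second start site of *Hsph1*, within the same stretch, held them too. A promoter of *Hspb6* held GAAGTTTC at -120, and neither promoter of *Dnajb1* held a match. A match was thus found in 6 of 9 promoters, from 5 of 6 genes, against 15.1% of 32851 promoters of that length. The overlapping pair of *Hsph1* makes a run of 3 units, which 0.603% of all promoters hold in either orientation. *Hspb8* held no run of 3 units, and *Hsph1* was the 1 member gene that did. The promoter of *Hspb8* had 62.3% G and C and 13 CpG, against medians of 52.7% and 7 over all promoters. A match is a description of letters, and binding of a factor was not measured.

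The other small heat shock protein genes gave no change of one sign in all 4 PGK12.1 experiments. *Hspb1* (HSP27, probe sets 10408928 and 10526410, chromosome 5), the broadly expressed member that also binds actin, had log2 values of 10.74, 10.68, 11.83 and 13.60 after *Kdm6a* RNAi in PGK12.1 experiments 1 to 4, against 10.52, 10.58, 11.90 and 13.63 in controls. Its changes were 0.23, 0.10, -0.07 and -0.04, higher with double RNAi and slightly lower with single RNAi. In WD44 they were -0.19 and 0.01. The 2 probe sets of *Hspb1* moved alike, with means of 0.06 and 0.05 in PGK12.1 and -0.08 and -0.10 in WD44.

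*Cryab* encodes αB-crystallin, a lens and muscle chaperone, and *Hspb2* encodes a muscle member that pairs with HSPB3. The genes lie next to each other on chromosome 9. *Cryab* (probe set 10585214) had log2 values of 6.80, 6.70, 8.05 and 9.10 after *Kdm6a* RNAi in PGK12.1, against 6.88, 6.72, 7.84 and 9.23 in controls. Its changes were -0.08, -0.02, 0.21 and -0.13 in PGK12.1 and -0.02 and 0.24 in WD44. *Hspb2* (probe set 10593418) had log2 values of 6.58, 6.67, 6.62 and 8.62 after *Kdm6a* RNAi, against 6.78, 6.52, 6.65 and 8.76 in controls. Its changes were -0.20, 0.15, -0.03 and -0.14 in PGK12.1 and -0.01 and -0.03 in WD44. Neither gene kept a sign over the 4 PGK12.1 experiments.

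*Hspb6* (HSP20, probe set 10551966, chromosome 7), known from smooth and heart muscle, had log2 values of 7.37, 7.50, 8.27 and 10.94 after *Kdm6a* RNAi in PGK12.1, against 7.38, 7.30, 8.20 and 10.92 in controls. Its changes were -0.01, 0.20, 0.07 and 0.02 in PGK12.1 and 0.06 and -0.04 in WD44. The change of 0.20 in experiment 2 was the only one of *Hspb6* beyond 0.07 in size.

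The partners of HSPB8 did not follow its change. *Bag3* (probe set 10557992, chromosome 7), whose protein holds HSPB8, had log2 values of 7.76, 7.75, 8.45 and 10.39 after *Kdm6a* RNAi in PGK12.1, against 7.88, 7.71, 8.28 and 10.43 in controls. Its changes were -0.12, 0.04, 0.17 and -0.04 in PGK12.1, with a mean of 0.01 ± 0.124 (SD, n = 4 experiments), and -0.05 and -0.10 in WD44.

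*Hspa8* (chromosome 9), the constitutive HSP70 that takes over clients of BAG3 and HSPB8, had log2 values of 12.74, 12.68, 13.45 and 13.94 after *Kdm6a* RNAi in PGK12.1, against 12.78, 12.88, 13.48 and 13.90 in controls. Its changes were -0.03, -0.20, -0.03 and 0.05 in PGK12.1 and 0.00 and 0.06 in WD44. The value is a mean of 3 probe sets that differed. Probe set 10584572 had changes of -0.08, -0.47, -0.14 and 0.06 in PGK12.1, a mean of -0.16, while 10368025 and 10528021 both had -0.01, -0.06, 0.02 and 0.04. *Hspa8* has many processed copies in the genome, and which copies a probe set reads was not tested.

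*Hsph1* (HSP110, probe set 10535904, chromosome 5), the nucleotide exchange factor, had log2 values of 11.18, 11.08, 11.21 and 11.37 after *Kdm6a* RNAi in PGK12.1, against 11.06, 11.12, 11.18 and 11.25 in controls. Its changes were 0.12, -0.04, 0.03 and 0.12 in PGK12.1 and -0.09 and 0.00 in WD44. *Dnajb1* (HSP40, probe set 10573198, chromosome 8), the J-domain partner, had log2 values of 8.74, 8.69, 9.52 and 10.58 after *Kdm6a* RNAi in PGK12.1, against 8.73, 8.75, 9.61 and 10.66 in controls. Its changes were 0.01, -0.06, -0.09 and -0.08 in PGK12.1 and 0.04 and -0.09 in WD44. Both genes are strongly heat-inducible, and no single change of either was beyond 0.12 in size.

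**Figure D2:**
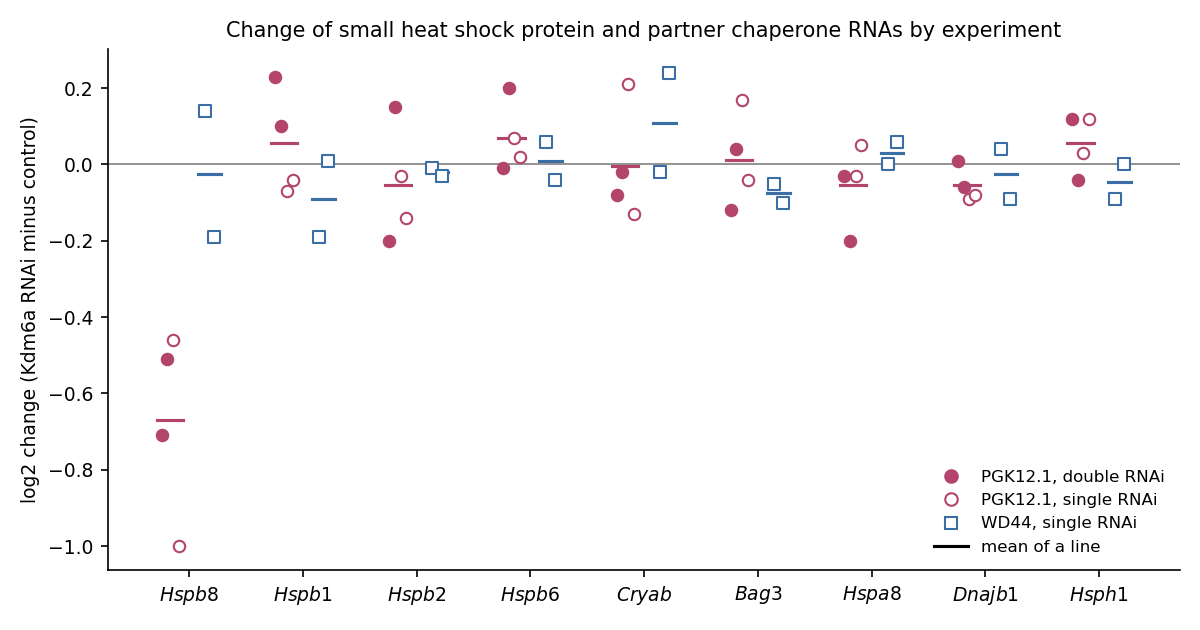
Log2 change (*Kdm6a* RNAi minus control) of the 9 measured members, 1 symbol per experiment. Circles are PGK12.1 (filled, double RNAi; open, single RNAi), squares are WD44 and bars are the mean of a line. *Hspb8* stands at -0.46 to -1.0 in PGK12.1, and the other 8 genes lie between -0.20 and 0.23 in PGK12.1 and between -0.19 and 0.24 in WD44.

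Over these 8 genes the mean change in PGK12.1 ran only from -0.06 to 0.07. None of the 8 was below 0 in all 4 PGK12.1 experiments, as 10.6% of tested genes were, and none was above 0 in all 4, as 16.3% were. The median change of the 9 members was 0.00, beside 0.008 over all tested genes. In the test across genes, 5.81% of genes were past the threshold in PGK12.1 (3.71% higher and 2.1% lower). Of the 9 members 1 was, *Hspb8*, on the contrast that chose it, and nothing is read from that count.

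**Figure D3:**
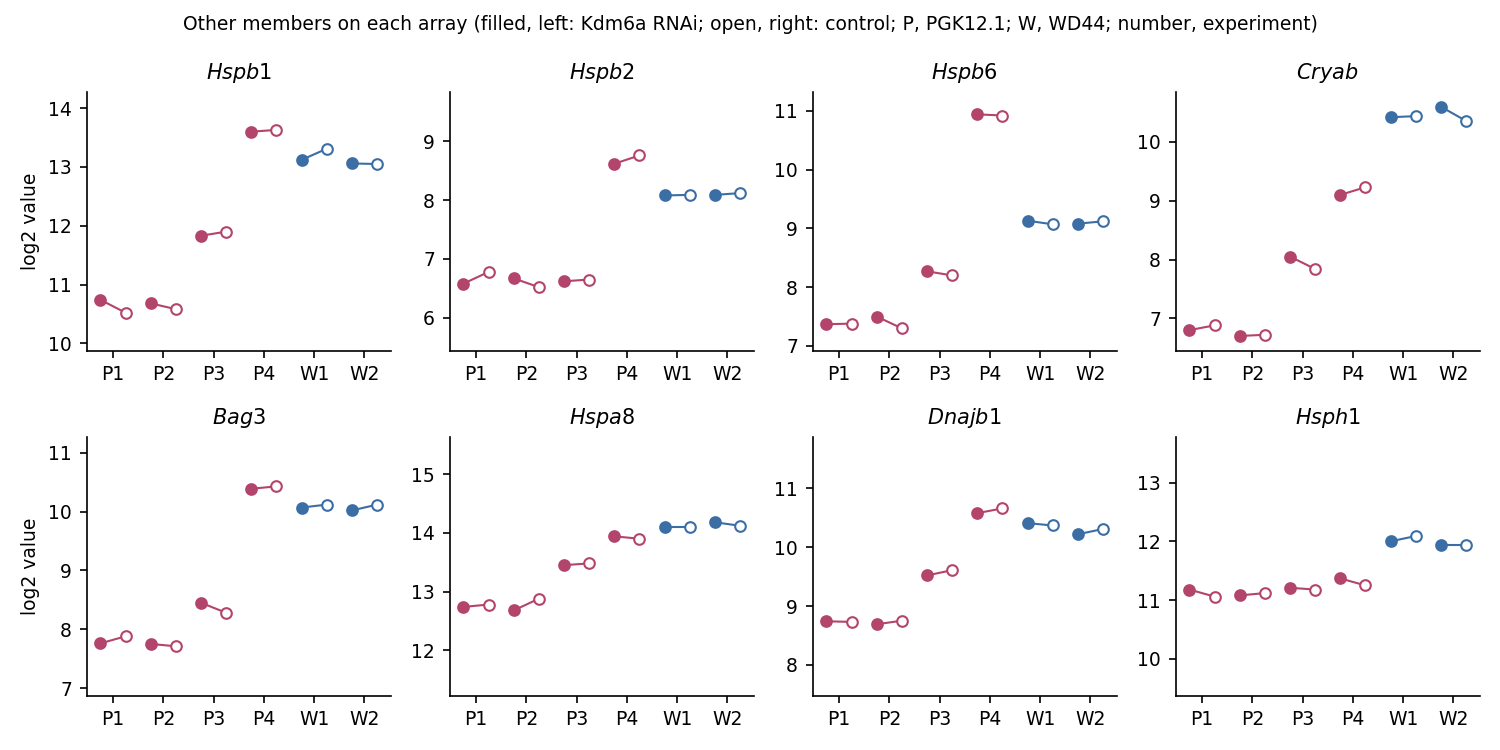
Log2 values of the other 8 members on each array, 1 panel per gene with axes of equal height. Filled symbols (left) are *Kdm6a* RNAi and open symbols (right) the control of the same experiment, for PGK12.1 experiments 1 to 4 (P1 to P4) and WD44 experiments 1 and 2 (W1, W2). No step within a pair is above 0.24 in size. Log2 values of the PGK12.1 experiments, whose scales differ, lie far apart for some genes, such as *Hspb1* (controls from 10.52 to 13.63). For *Hsph1* they do not (controls from 11.06 to 11.25). Relative to the mean of their own array, these *Hsph1* controls ran from 2.0 to 5.98.

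The change in WD44 was not used to choose the list, but its test shares 1 estimate of the spread with the PGK12.1 arrays. No member passed it (0 of 9, where 0% of all tested genes passed, also in each direction), and the adjusted p of the members ran from 0.583 to 0.963 (limma). At an unadjusted p under 0.05 there were 0 members and 2461 genes. The widest interval was that of *Hspb8*, and that of *Cryab*, the member with the highest mean (0.11), ran from -0.09 to 0.31. Changes below 0 in both WD44 experiments were found in 2 of 9 members, *Hspb2* and *Bag3*, against 33.1% of tested genes. The median change was -0.02 for the members and -0.005 for all tested genes. *Kdm6a* itself did not pass in WD44 (mean -0.93, 95% confidence interval -1.17 to -0.69, adjusted p = 0.13 from limma).

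No member passed the test of double minus single RNAi within PGK12.1 (0 of 9, where 0% of tested genes passed, also in each direction, limma). The adjusted p of the members ran from 0.563 to 0.939. At an unadjusted p under 0.05 there were 0 members and 1360 genes. The lowest p was that of *Hspb1*, with a mean change of 0.16 after double RNAi and -0.05 after single RNAi, a difference of 0.22 (standard error 0.0982, adjusted p = 0.563). Both double RNAi changes lay above both single RNAi changes in 2 members, *Hspb1* and *Dnajb1*, where 20.8% of tested genes did so, and below them in 1 member, *Hspa8*, where 15.8% did. The 2 kinds of RNAi differ in dose and in time together, and these cannot be told apart.

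Other chaperone and stress genes were counted by list to see whether the wider network moved. The 9 lists held 85 different tested genes, and genes can stand in more than 1 list. In PGK12.1, 4 rose and 2 fell, 7.06% of the 85, beside 5.81% of all tested genes, and their median change was 0.02. In WD44 and between double and single RNAi, 0 of the 85 passed.

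None of the 4 tested other small heat shock genes passed in PGK12.1. The furthest from 0 were *Hspb7*, a heart muscle member, at -0.06 (adjusted p = 0.633) and *Hspb9*, a testis member, at 0.03 (adjusted p = 0.804). In WD44 all 4 had a mean above 0 (47.6% of all tested genes), with a median of 0.14, and none passed. There *Hspb9* changed by 0.31 and 0.30 (adjusted p = 0.164 from limma). Of the 16 genes of the HSP70 family and its exchange factors, 1 fell: *Hspa12b*, a distant HSP70 of endothelial cells, at -0.26 (standard error 0.0591, adjusted p = 0.0331 from limma), with changes of -0.44, -0.17, -0.15 and -0.28. Its mean level was low, at 0.131 of the array mean, near the minimum of 0.1. Of the 16 J-domain cochaperones, 2 rose and the median was 0.08. *Dnajc3*, which encodes the ER cochaperone P58IPK, rose by 0.36 (standard error 0.0529, adjusted p = 0.00592), with changes of 0.45, 0.47, 0.29 and 0.23. *Dnaja4* rose by 0.26 (standard error 0.0593, adjusted p = 0.0361), with 0.05 in experiment 1 and 0.35, 0.39 and 0.23 in the others. The calls of *Hspa12b* and *Dnaja4* rest on few arrays: each was lost without 5 of the 6 experiments in turn, at adjusted p up to 0.106 and 0.14, and was kept only without PGK12.1 experiment 3 for *Hspa12b* and without PGK12.1 experiment 1 for *Dnaja4*.

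No gene of the HSP90 system (11 tested), of the chaperonins (10 tested) or of the other heat shock factors (3 tested) passed in PGK12.1. The mitochondrial HSP90 *Trap1* was at 0.11 (adjusted p = 0.189) and the HSP90 activator *Ahsa1* at 0.08 (adjusted p = 0.367). The mitochondrial chaperonin genes *Hspe1* and *Hspd1* were at -0.10 (adjusted p = 0.23) and 0.06 (adjusted p = 0.482). *Hsf2* was at 0.12 (adjusted p = 0.141) and *Hsf4* at -0.07 (adjusted p = 0.376).

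Of 14 tested heat-inducible genes, 1 rose (*Dnaja4*, above) and 1 fell, with a median of 0.01. The one that fell was *Serpinh1*, which encodes HSP47, the collagen chaperone of the ER, at -0.38 (standard error 0.052, adjusted p = 0.00442 from limma). Its changes were -0.46, -0.29, -0.27 and -0.51 in PGK12.1 and 0.15 and 0.20 in WD44. Of 10 tested genes of chaperone-assisted autophagy, the route that HSPB8 and BAG3 serve, none passed. The lysosomal receptor *Lamp2* was at 0.16 (adjusted p = 0.0789) and the BAG3 partner *Ywhag* at -0.09 (adjusted p = 0.319). Of 19 tested genes of the ER unfolded protein response, 2 rose, 17 had a mean above 0 (53.2% of all tested genes) and the median was 0.05. In WD44 none passed, 14 had a mean above 0 (47.6% of all tested genes) and the median was 0.06. *Xbp1*, a transcription factor of that response, rose by 0.26 (standard error 0.0454, adjusted p = 0.0104) and *Sel1l*, of ER-associated degradation, by 0.20 (standard error 0.047, adjusted p = 0.0375). The call of *Xbp1* was lost without PGK12.1 experiment 2 (adjusted p = 0.0545), and that of *Sel1l* without any 1 of the 6 experiments (adjusted p = 0.0667 to 0.126).

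**Figure D4:**
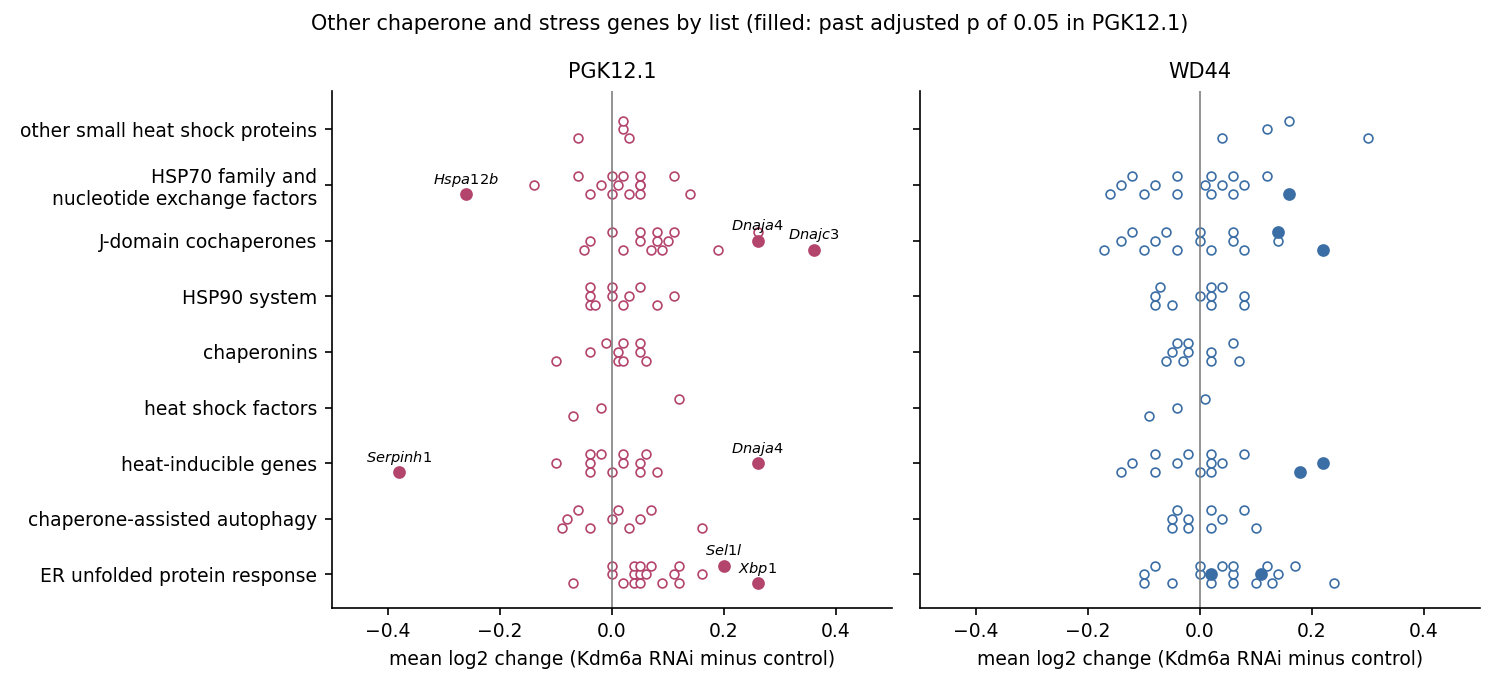
Mean log2 change (*Kdm6a* RNAi minus control) of the other chaperone and stress genes in PGK12.1 (left) and WD44 (right), 1 symbol per tested gene and 1 row per list. Filled symbols are the 6 genes past the threshold in PGK12.1, named there; *Dnaja4* stands in 2 rows. All 85 genes lie between -0.38 and 0.36 in PGK12.1.

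Small heat shock proteins are abundant in muscle and are also made by fibroblasts, so markers of these cells were set beside *Hspb8*. Of 10 tested muscle genes, 8 had a mean below 0 in PGK12.1 (45.7% of all tested genes), with a median of -0.12, and 9 had a mean above 0 in WD44 (47.6% of all tested genes), with a median of 0.20. In PGK12.1 *Des*, which encodes desmin, was the 1 that passed, at -0.26 (standard error 0.0613, adjusted p = 0.0367 from limma). Its call was lost without 5 of the 6 experiments in turn (adjusted p up to 0.144) and kept without PGK12.1 experiment 3. The summed level of the 10 muscle genes was 1.68 to 2.48 times the array mean after *Kdm6a* RNAi and 1.81 to 2.61 in controls in PGK12.1, and 3.23 to 3.24 against 2.86 to 2.95 in WD44. Within pairs it was lower after *Kdm6a* RNAi in all 4 PGK12.1 experiments (0.868 to 0.951 of the control) and higher in both WD44 experiments (1.13 and 1.1 times the control). *Myod1* and *Myog*, which define skeletal muscle, lay between 0.137 and 0.219 and between 0.0999 and 0.16 of the array mean over the 12 arrays. The part of the muscle genes in the change of *Hspb8* was not tested.

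Of 10 tested fibroblast (feeder) markers, none passed in PGK12.1, where 7 had a mean below 0 (45.7% of all tested genes) and the median was -0.05. In WD44 none passed, 8 had a mean above 0 (47.6% of all tested genes) and the median was 0.14. In PGK12.1 *Thy1* was at -0.17 (adjusted p = 0.226) and *Acta2* at 0.11 (adjusted p = 0.619). The sum over all 12 was 12.2 to 20.9 times the array mean after *Kdm6a* RNAi and 13.1 to 21.3 in controls in PGK12.1, and 25.1 to 26.8 against 24.4 to 24.5 in WD44. By the mean over the 12 arrays its largest parts were *Vim* (8.75 times the array mean) and *Fn1* (6.13), with *Col1a1* at 0.429 and *Lum* at 0.0222. The sum thus mostly follows those 2 genes. Within pairs the sum was lower after *Kdm6a* RNAi in all 4 PGK12.1 experiments (0.933 to 0.982 of the control) and higher in both WD44 experiments (1.03 and 1.09 times the control), and the part of these markers in the change of *Hspb8* was not tested. Of the 7 tested primitive endoderm markers *Lamb1* fell, at -0.26 (adjusted p = 0.0156), a call lost without PGK12.1 experiment 2 or 3 (adjusted p up to 0.0736). The sum of 8 such markers was 2.14 to 2.88 after *Kdm6a* RNAi and 2.35 to 2.89 in controls in PGK12.1, and 3.62 to 3.63 against 3.62 to 3.69 in WD44, and was lower within 3 of 4 PGK12.1 pairs and both WD44 pairs. None of the 8 ES cell markers passed. *Sox2* was at 0.08 (adjusted p = 0.327) and *Dppa5a* at 0.04 (adjusted p = 0.714). In arrays of whole cultures, fewer cells of a type and less RNA per cell cannot be told apart, for *Hspb8* as for the markers.

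The genes nearest to *Hspb8* were sought by the root mean square difference of the 6 log2 changes, over all tested genes. They were *Capg* (0.192), *Aqp3* (0.208), *Fam169b* (0.211), *Plet1* (0.218) and *Car14* (0.238). *Capg*, which encodes an actin filament capping protein, had changes of -0.49, -0.62, -0.54 and -0.68 in PGK12.1 and -0.09 and -0.20 in WD44. *Aqp3*, a water and glycerol channel, had -0.67, -0.61, -0.53 and -0.64 in PGK12.1 and -0.13 and 0.01 in WD44. *Plet1*, a marker of trophoblast progenitors, had -0.66, -0.58, -0.64 and -0.75 in PGK12.1 and -0.28 and -0.11 in WD44. *Fam169b* had -0.76, -0.45, -0.29 and -0.79 in PGK12.1, with experiments 1 and 4 the lowest as for *Hspb8*, and -0.25 and -0.38 in WD44. *Car14*, a membrane carbonic anhydrase, had smaller changes of -0.40, -0.48, -0.35 and -0.59 in PGK12.1 and -0.05 and -0.03 in WD44. No chaperone of the lists was among the 5. The chaperone and stress lists held only 85 of the 15309 tested genes, so nothing is read from that absence. Likeness over 6 experiments that share 1 contrast is a description.

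Of the 7 tested trophoblast markers only *Plet1* passed in PGK12.1 (mean -0.66, standard error 0.0481, adjusted p = 0.000444 from limma), but all 7 had a mean below 0 (45.7% of all tested genes), with a median of -0.07. In WD44, 4 of the 7 did, with a median of -0.03. The sum of 8 trophoblast markers was 2.95 to 4.88 times the array mean after *Kdm6a* RNAi and 3.30 to 5.51 in controls in PGK12.1, and 17.6 to 17.7 against 16.0 to 16.7 in WD44. Within pairs it was lower after *Kdm6a* RNAi in all 4 PGK12.1 experiments (0.884 to 0.896 of the control) and higher in both WD44 experiments (1.06 and 1.1 times the control). By the mean over the 12 arrays, its largest parts were *Krt8* (3.09 times the array mean), *Krt18* (1.92), *Tfap2c* (1.19) and *Plet1* (1.09). *Cdx2* stood at 0.204 and *Elf5* at 0.0981, so the sum mostly follows the former genes. The part of the trophoblast markers in the change of *Hspb8* was not tested.

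**Figure D5:**
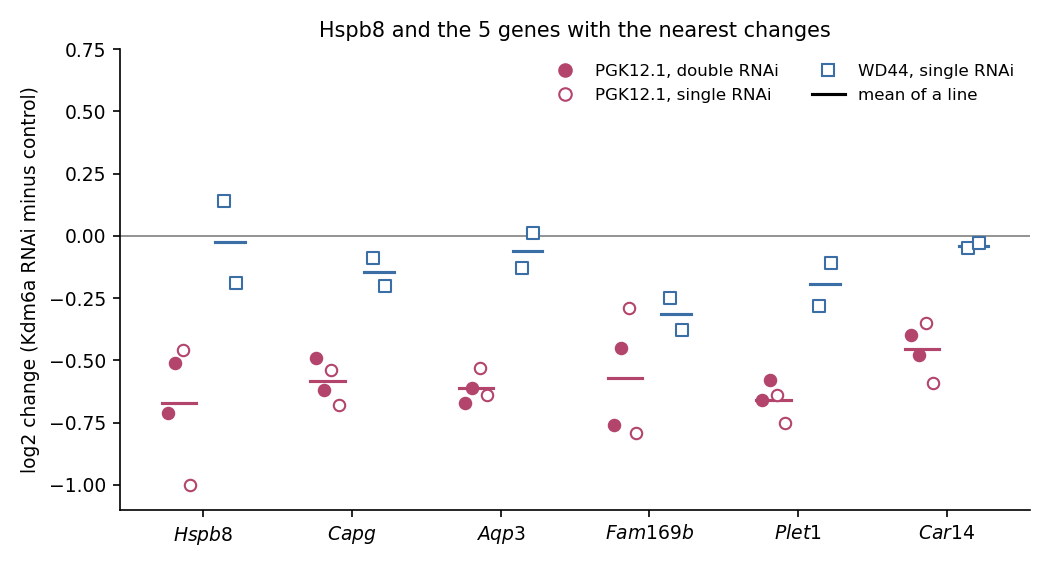
Log2 change (*Kdm6a* RNAi minus control) of *Hspb8* and of the 5 genes nearest to it, 1 symbol per experiment, drawn as in the plot of the members. All 6 genes lie at or below -0.29 in every PGK12.1 experiment, and *Hspb8* spans the widest range.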

How the data were processed

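Total RNA was measured on 12 arrays (Affymetrix Mouse Gene 1.0 ST). The authors' processing notes name Affymetrix Expression Console and RMA, and their methods credit RMA to a Bioconductor package, so which program made the values is not settled. RMA corrects background, aligns array distributions and summarizes probes, and log2 values were deposited. Versions, genome build and the set of arrays that RMA took together are not stated in what was used here. The deposited values were used without further normalization, and the number of arrays limits precision.

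The sample labels gave groups and experiment numbers. The platform annotation pairs 21789 of 35556 probe sets with 1 gene symbol and 1621 with several (not named), and lists none for 12146. Probe sets of a gene were averaged (999 genes). Genes whose unlogged value averaged at least 0.1 of the array mean were tested (15309), and 4629 lay below.

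The model was fitted by limma 3.58.1 (R 4.3.3), moderated by empirical Bayes (degrees of freedom 4 residual, 5.66 prior), with the experiment as a block, 1 spread over 12 arrays, Benjamini-Hochberg adjustment over all tested genes and a threshold of 0.05. The block follows the methods, which name paired tests, and the labels, which number both arrays of an experiment alike. As a check of pairs, the correlation of both arrays' deviations from their group means was taken. It was 0.828, 0.846, 0.915 and 0.972 for PGK12.1, where array scales differed between experiments and may raise it. For WD44 it was 0.265, where both values are equal by construction. Whether the WD44 experiments were separate cultures is not stated, so their spread may be technical, and most of the spread behind their p-values comes from PGK12.1.

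The members and lists were chosen with earlier results of these data known. Named besides the members were list genes past the threshold, otherwise the 2 with the largest mean change in PGK12.1, and the 5 genes nearest to *Hspb8*. The difference between lines was fitted across all tested genes, is given for the named list genes and as a count, and was added after seeing the data. Alternatives were the minimum level, the block, moderation, quantile normalization, median centring, single probe sets, double or single RNAi alone, 1 line alone, the methods' paired test and leaving out each experiment. Promoters and chromosomes came from RefSeq tables of GRCm38.p6. Plots used Python 3.11.15 with matplotlib 3.10.9.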

Additional observations from a re-analysis of the deposited data

Results flagged for a closer look

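For 5 named genes that are no member, all 4 PGK12.1 experiments changed one way and both WD44 experiments the other. The named genes were picked by their changes, and the share of all tested genes with this pattern was not counted. Nothing is therefore read from the number of 5. The difference of the mean log2 changes, PGK12.1 minus WD44, was -0.42 for *Hspa12b* (adjusted p = 0.0955 from limma), -0.56 for *Serpinh1* (adjusted p = 0.0798), 0.16 for *Trap1* (adjusted p = 0.274), 0.20 for *Hsf2* (adjusted p = 0.153) and 0.12 for *Sox2* (adjusted p = 0.379). None passed the test of the difference, and 0 of the 15309 tested genes did, with 3216 at an unadjusted p under 0.05. No member of the small heat shock protein group met this description, since the WD44 changes of *Hspb8* were of both signs.

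The change of *Thy1*, a fibroblast marker, in PGK12.1 experiment 4 was -0.52, apart from -0.02, -0.04 and -0.10 in the others. It was the 1 outlying value in 32 groups of 4 experiments, and chance marks about 1 group in 20.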

How the results depend on the processing

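The change of *Hspb8* in PGK12.1, on which the list was chosen, stayed below 0 under all 16 alternatives, between -0.74 and -0.56. These 2 ends came from leaving out experiments 3 and 4. Several of the 16 cannot alter this mean, such as the minimum level, the block, moderation and leaving out a WD44 experiment. In WD44 and between double and single RNAi, 0 of the 9 members passed under every alternative run. Without the replicate block 0 genes and 0 members passed in PGK12.1. All differences between experiments then enter the spread, array scales among them, and the part of the scales was not tested.

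The number of genes past the threshold in PGK12.1 (890) was 182 with double RNAi only, 101 with single RNAi only, 452 with no minimum level, 1365 with a minimum of 0.25 and 1647 with trended, robust moderation. It was 350 to 607 when 1 experiment was left out, the lowest without PGK12.1 experiment 2. The methods' paired test gave 2444 genes unadjusted and 0 after Benjamini-Hochberg. The member passing (*Hspb8*) was lost with single RNAi only and in the methods' paired test after adjustment (0 each). In WD44 the number of genes (0) was 1 with a minimum of 0.25, 1 after quantile normalization, 12 with trended, robust moderation and 0 to 1 with an experiment left out. There the methods' paired test gave 1045 unadjusted and 174 after adjustment. With only 2 experiments, that test gives a very small p to any gene whose 2 changes are almost equal. Nothing is read from these counts. For double minus single RNAi, trended, robust moderation gave 1 gene. The causes were not tested beyond the fewer arrays or genes of some settings.

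Signs of small, uncalled log2 changes turned as follows. In WD44, quantile normalization gave 0.021 for *Hspb8* and 0.017 for *Dnajb1*. Leaving out an experiment gave ranges in WD44 of -0.19 to 0.14 for *Hspb8*, -0.185 to 0.015 for *Hspb1*, -0.04 to 0.06 for *Hspb6*, -0.02 to 0.24 for *Cryab* and -0.09 to 0.04 for *Dnajb1*. For double minus single RNAi the ranges were -0.15 to 0.39 for *Hspb8*, -0.115 to 0.235 for *Hspb2*, -0.055 to 0.155 for *Hspb6*, -0.26 to 0.08 for *Cryab* and -0.115 to 0.045 for *Hsph1*. In PGK12.1 they were -0.003 to 0.098 for *Hspb1*, -0.077 to 0.037 for *Cryab*, -0.04 to 0.057 for *Bag3*, -0.017 to 0.083 for *Hspb9*, -0.02 to 0.10 for *Dppa5a* and -0.063 to 0.247 for *Acta2*. In PGK12.1 single RNAi only gave -0.055 for *Hspb1*, 0.04 for *Cryab*, 0.007 for *Hspa8*, 0.01 for *Hspb7* and -0.07 for *Dppa5a*, double RNAi only gave -0.04 for *Bag3* and -0.145 for *Acta2*, and quantile normalization gave -0.009 for *Bag3*.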
